A study of Mus musculus with 6 samples.

Results

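Voltage-gated calcium channel subunits were examined in cultured mouse islets through the 14 probe rows of 8 genes, out of 30146 probe rows for 21400 gene symbols. The rows were chosen by gene symbol alone: the pore genes Cacna1a, Cacna1c, Cacna1d and Cacna1h, the beta subunit genes Cacnb2 and Cacnb3, and the alpha2delta genes Cacna2d1 and Cacna2d2. Islets of 3 male wild-type C57Bl/6 mice, of an age not given in the sources used here, were divided between 10 uM cisplatin and its vehicle, 0.9% saline, in serum-containing RPMI medium for 48 h. The 3 cisplatin and 3 vehicle libraries therefore come from the same mice, and libraries 1, 2 and 3 of each arm share a mouse. TempO-Seq, the assay used, ligates pairs of detector oligonucleotides on the RNA of a lysate and counts the ligated products, so each probe row reports the short stretch of RNA that its probe covers. Cisplatin, a platinum drug of chemotherapy, forms crosslinks in DNA, and the series asked how it changes gene expression in islets.

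A voltage-gated calcium channel is built around a pore (alpha1) subunit that opens when the membrane depolarizes. A cytoplasmic beta subunit binds the pore and helps it reach the surface, and an extracellular alpha2delta subunit raises the number and current of surface channels. In beta cells glucose metabolism closes ATP-sensitive potassium channels, the membrane depolarizes, and calcium that enters through these channels triggers the release of insulin granules. Cacna1c and Cacna1d encode L-type pores, Cacna1a the P/Q-type pore and Cacna1h a T-type pore that opens at more negative potentials.

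The cisplatin libraries held 1116916 to 1366829 counts and the vehicle libraries 1470227 to 2272276. Mitochondrially encoded rows took 28.6% of cisplatin library 3 and 0.188% to 3.11% of the others. Endocrine markers were present throughout, as an islet label implies. The summed level of the beta cell list, in CPM (counts scaled to a common library size with trimmed-mean, or TMM, factors), was 65453 to 144454 with cisplatin and 92109 to 163516 with vehicle. The alpha cell list was at 7896 to 10691 and 18409 to 50585, and the delta and PP cell list at 1562 to 3071 and 1968 to 5162. Acinar markers were near 0 in both groups (1.05 to 14.0 and 2.7 to 4.31 CPM, with Prss2 at 0 counts in all libraries). Endothelial markers summed to 99.8 to 136 and 73.9 to 113, but not alike: both Esam rows were called higher and the Kdr and Eng rows lower. Immune markers were at 9.07 to 38.0 and 71.4 to 158, and duct markers at 1306 to 2291 and 1171 to 1573 CPM. The duct sum was nearly all Krt7 and Spp1. The other duct markers were hardly counted: Krt19 had 0, 1 and 1 counts with cisplatin and 2, 0 and 6 with vehicle. Sox9 had 0, 0 and 7 counts with cisplatin and 0 in each vehicle library, so the sum is no measure of duct cells. Of the tested marker rows 4 of 11 for beta cells (Mafa, Nkx6-1, Ucn3 and G6pc2), 3 of 5 for alpha cells, 1 of 5 for delta and PP cells, 2 of 4 for endothelial cells, 4 of 4 for immune cells and 0 of 4 for duct were called lower. Called higher were 1 beta cell row, of Ins2, and 2 endothelial rows, of Esam, and the part of these cells in the channel results was not tested.

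Messages of the pores Cacna1a and Cacna1c were lower with cisplatin, as was 1 of the 3 rows of the beta subunit Cacnb2, while Cacna2d1 and Cacnb3 were not called. The Cacna1a row was 9.67-fold lower, the Cacna1c rows 6.68-fold and 19.9-fold lower, and the Cacnb2 row at probe 76028 17.9-fold lower in edgeR's quasi-likelihood fit (n = 3 libraries per arm). Of the 14 rows 6 passed the filter on low counts, and of these 4 were called lower and 0 higher at an adjusted p under 0.05. DESeq2 also called 4 lower and 0 higher, and at an unadjusted p under 0.05 edgeR gave the same 4 rows. Over all 9381 tested rows 13.9% were called lower and 11.1% higher, 25% in all. All 4 called rows passed the filter through the vehicle libraries alone, which by itself favours a call, and 57.6% of the 698 tested rows of that kind were called lower. Passing in this way also sets the arms of a row apart before TMM scaling. The lack of overlap given below for these 4 rows is therefore no further support. The median log2 fold change was -3.01 over the 6 tested rows and -0.07 over all tested rows, and for the same reason neither the count nor this median is support for a change of the group. In islet lysates fewer cells of a type and less RNA per cell cannot be told apart.

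Summed over all 14 rows, the channel genes were at 30.5, 52.8 and 27.2 CPM in cisplatin libraries 1, 2 and 3 and at 105, 92.3 and 93.6 CPM in the vehicle libraries. Every cisplatin library lay below every vehicle library. These sums include the called rows of Cacna1a, Cacna1c and Cacnb2, which passed the filter through the vehicle libraries alone. The lack of overlap of the sums is therefore no further support for a change of the group. Of the rows that were not called, all but Cacna1h probe 66421 overlapped between arms. The share of all rows whose arms do not overlap was not counted. Overlap or its lack, here and below, therefore only describes a row. Behind these sums stood 37, 57 and 26 counts in the cisplatin libraries against 273, 150 and 244 in the vehicle libraries, so no single row rests on many counts. A count of 0 allows up to 3 counts, which is 2.47 to 3.14 CPM in a cisplatin library and 1.15 to 1.85 CPM in a vehicle library. Such limits, like the intervals given for count ratios, cover counting error only and treat amplified reads as if they were separate molecules.

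**Figure D1:**
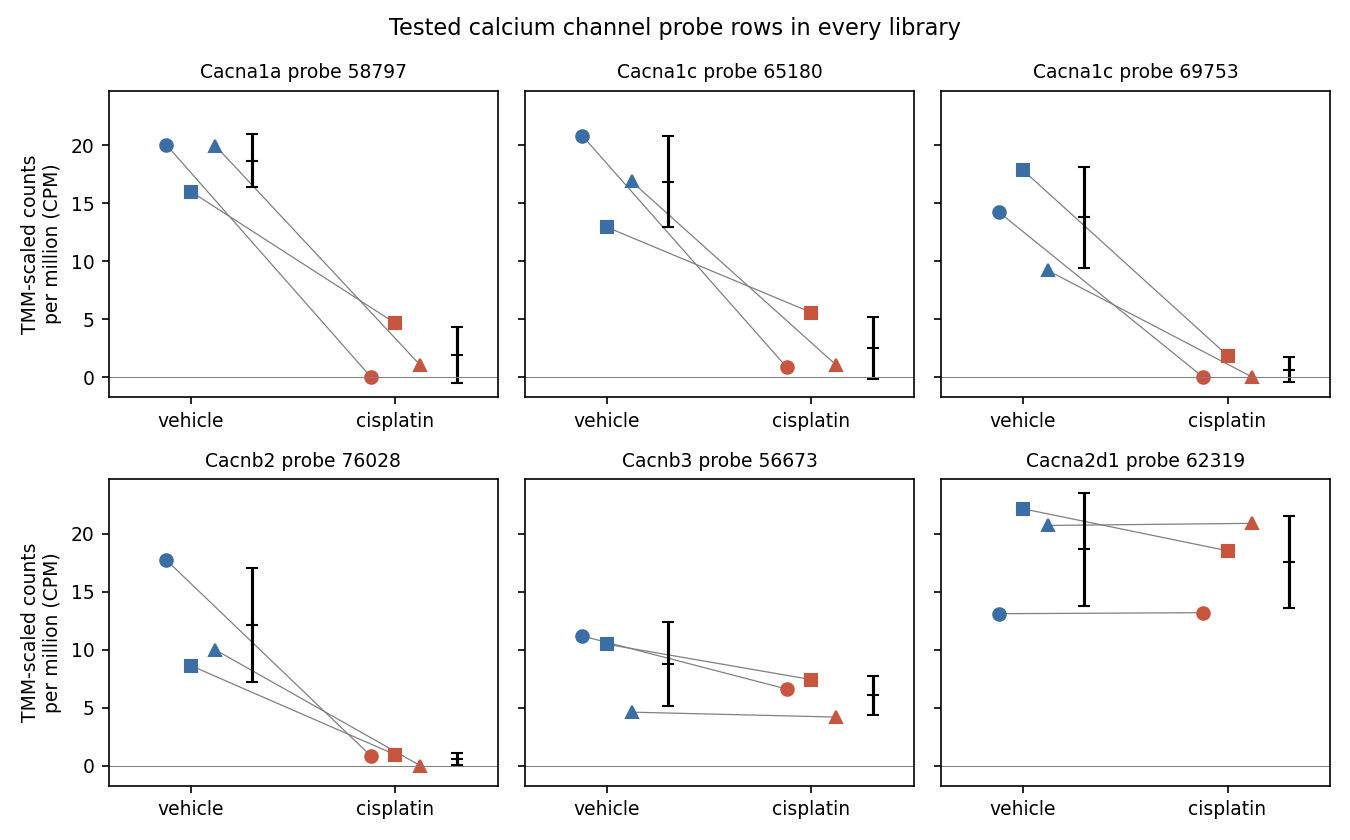
TMM-scaled CPM of the 6 tested calcium channel rows in each library (circles, squares and triangles for mice 1, 2 and 3, grey lines joining both arms of a mouse, black bars the mean ± SD over 3 libraries). The vehicle and cisplatin values of the Cacna1a, Cacna1c and Cacnb2 rows do not overlap, and those of Cacnb3 and Cacna2d1 do. The rows without overlap passed the filter through the vehicle libraries alone, which by itself sets their arms apart before scaling.

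Cacna1a, which lies on chromosome 8 (84388440 to 84640246, plus strand, GRCm38, GENCODE M21), has 1 row, probe 58797. It was at 0, 4.64 and 1.05 CPM in cisplatin libraries 1, 2 and 3 and at 20.0, 16.0 and 20.0 CPM in vehicle libraries 1, 2 and 3. The lowest vehicle value stood above the highest cisplatin value, which was that of library 2. Group means were 1.89 ± 2.43 and 18.7 ± 2.31 CPM (SD, n = 3), a log2 fold change of -3.27 ± 0.88 (SE; edgeR quasi-likelihood test, adjusted p = 0.0153; lower in 3 of 3 mice). Without cisplatin library 2, which holds 5 of the 6 cisplatin counts, the value was -5.13, and without cisplatin library 1, which holds none, it was -2.57, called both times. Without vehicle library 1 the call was lost (adjusted p = 0.101), as it was without vehicle library 3 (adjusted p = 0.0861).

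Cacna1c (chromosome 6, 118587240 to 119196418, minus strand) has 2 rows, and both were called. Probe 65180 was at 0.825, 5.56 and 1.05 CPM with cisplatin and at 20.8, 12.9 and 16.9 CPM with vehicle. Probe 69753 was at 0, 1.85 and 0 CPM with cisplatin and at 14.3, 17.9 and 9.21 CPM with vehicle. In both rows the groups did not overlap and cisplatin library 2 was the highest of its arm. Probe 65180 changed by -2.74 ± 0.81 on the log2 scale (edgeR, adjusted p = 0.0243). Probe 69753 summed to 2 counts over the cisplatin arm and 90 over the vehicle arm, a ratio of 21.4 with a 95% exact binomial interval of 5.76 to 179.6, and a fitted log2 fold change of -4.32 ± 1.10 (edgeR, adjusted p = 0.0117). With both rows summed per gene, Cacna1c totalled 10 cisplatin and 209 vehicle counts and changed by -3.31 ± 0.72 (edgeR, adjusted p = 0.00363). Leaving out cisplatin library 3, vehicle library 1 or vehicle library 3 ended the call of probe 65180 (edgeR adjusted p = 0.0665, 0.175 and 0.117). Leaving out vehicle library 1 or 2 ended that of probe 69753 (edgeR adjusted p = 0.0895 and 0.0552). Without cisplatin library 2 the rows were at -4.10 and -7.63, and without cisplatin library 1 at -2.22 and -3.64, called each time.

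Smooth muscle also carries the Cacna1c channel, and neurons carry several of these channels. The list of stromal and muscle markers was at 36.3 to 85.7 CPM with cisplatin and 61.6 to 230 CPM with vehicle, with all 8 genes detected with vehicle and 7 with cisplatin. Of its 5 tested rows 1 was called lower, that of the pericyte marker Rgs5 (1, 3 and 0 counts with cisplatin and 80, 61 and 94 with vehicle). Its muscle-defining member Myh11, not tested, had 0 counts in each cisplatin library and 19, 9 and 7 in vehicle libraries 1, 2 and 3. Neuron and glia markers were at 48.7 to 83.6 and 117 to 228 CPM, with 5 of 6 genes detected with cisplatin and 4 with vehicle, and 1 of 2 tested rows, of Elavl4, called lower. Their part in the lower Cacna1a and Cacna1c values was not tested.

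Cacna1d (chromosome 14, 30039939 to 30491455, minus strand), the other L-type pore on the list, was hardly counted by either of its rows. Probe 67394 had 0 counts in all 6 libraries, which allows up to 0.440 CPM over the vehicle group and 0.924 CPM over the cisplatin group. Probe 68629 had 2 counts, both in vehicle library 1. At this depth no level could be given for Cacna1d, and a difference between arms was not detectable. The T-type pore gene Cacna1h (chromosome 17, 25374285 to 25433783, minus strand) has 3 rows, none of which passed the filter. Probe 66421 had 0 counts in each cisplatin library and 5, 5 and 3 counts with vehicle. Against a floor of 3 counts over the cisplatin group the ratio was 2.06, which leaves out the error of the vehicle counts and the spread between libraries. Without a filter the row changed by -4.84 ± 2.58 on the log2 scale and was not called (edgeR, adjusted p = 0.279). Probe 78857 had 11, 1 and 0 counts with cisplatin and 1, 0 and 8 with vehicle, and probe 70107 had 0, 4 and 0 against 4, 0 and 2. The Cacna1h rows thus differed among themselves: 1 was counted in each vehicle library and in no cisplatin library, while the others overlapped between arms, probe 78857 with most cisplatin counts in library 1.

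Beta subunits grip the pore at the alpha interaction domain, between its first and second repeat. The stretch that encodes it is shown because it links both called classes of subunit. A search of the longest reading frame of each pore gene's GENCODE M21 transcripts with the domain's consensus pattern gave 1 match in Cacna1a, Cacna1c and Cacna1d. The 54 coding bases are printed 5′ to 3′, with the codons for its glycine-tyrosine and tryptophan-isoleucine pairs in capitals.
Cacna1a: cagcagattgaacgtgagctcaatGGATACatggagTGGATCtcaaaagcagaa
Cacna1c: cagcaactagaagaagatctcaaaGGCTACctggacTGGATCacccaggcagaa
Cacna1d: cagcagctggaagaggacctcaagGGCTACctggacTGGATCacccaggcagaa
Cacna1c and Cacna1d shared 49 of 54 bases, Cacna1a and Cacna1c 39, and Cacna1a and Cacna1d 40. In translation Cacna1c and Cacna1d shared all 18 residues, and Cacna1a shared 10 of the 18 with each of them. The pattern itself fixes 10 of the 18 residues, so any matches must share at least these. Cacna1a thus shared with Cacna1c and Cacna1d only the residues that the search required, and the counts of shared bases are raised by it too. The pattern had 0 matches in Cacna1h, which says only that these letters are not in that reading frame.

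Among beta subunits, Cacnb2 (chromosome 2, 14603088 to 14987908, plus strand) has 3 rows, of which 1 was tested. Probe 76028, the most counted of them with vehicle and the least counted with cisplatin, was at 0.825, 0.927 and 0 CPM with cisplatin and at 17.7, 8.62 and 9.98 CPM with vehicle. The groups did not overlap, and vehicle library 1 was the highest. Its 2 cisplatin counts against 86 vehicle counts gave a fitted log2 fold change of -4.16 ± 1.05 (edgeR, adjusted p = 0.0106), a call that ended when vehicle library 1 or 3 was left out (adjusted p = 0.145 and 0.0659). Probe 78966 had 0, 7 and 0 counts with cisplatin and 8, 0 and 14 with vehicle, and probe 78105 had 0, 3 and 0 against 1, 1 and 4. Both overlapped between arms and failed the filter, and all of their cisplatin counts lay in library 2. Without a filter the 3 rows were at -4.27 ± 1.25, -0.53 ± 1.49 and 0.01 ± 2.33 for probes 76028, 78966 and 78105 (edgeR log2 fold change ± SE), and a difference between rows was not tested. With the 3 rows summed per gene, Cacnb2 totalled 12 cisplatin and 114 vehicle counts and was not called (-2.11 ± 0.95, edgeR adjusted p = 0.113). The Cacnb2 call is therefore that of 1 probed stretch. Whether the 3 probes report different transcripts of Cacnb2 was not tested.

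Cacnb3 (chromosome 15, 98630840 to 98644529, plus strand), the other beta subunit gene, was at 6.60, 7.42 and 4.18 CPM with cisplatin and at 11.2, 10.5 and 4.61 CPM with vehicle. Cisplatin was below vehicle in 3 of 3 mice, but the arms overlapped, with library 3 lowest in both. Probe 56673, its 1 row, had a log2 fold change of -0.51 ± 0.76 (edgeR, adjusted p = 0.677), with a 95% interval of -2.15 to 1.13, and with the mouse as a block it was at -0.48 ± 0.99 (edgeR, adjusted p = 0.780). The interval spans differences in either direction, so 58 vehicle and 20 cisplatin counts leave its change unresolved.

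Of the alpha2delta genes, 1 was counted often enough to be tested. Cacna2d1 (chromosome 5, 15934691 to 16374511, plus strand), at probe 62319, was at 13.2, 18.5 and 20.9 CPM with cisplatin and at 13.1, 22.2 and 20.7 CPM with vehicle. Library 1 was lowest in both arms and the groups overlapped almost completely. Means were 17.5 ± 3.95 and 18.7 ± 4.87 CPM (SD, n = 3), and the log2 fold change was -0.09 ± 0.51 (edgeR, adjusted p = 0.922; 95% interval -1.17 to 0.996). Its sign was not stable, and with library totals alone as the scale, which shifts the median of all tested rows by -0.46, it was at -0.57 and still not called. Cacna2d2 (chromosome 9, 107399612 to 107529343, plus strand) had 0 counts with cisplatin and 2 with vehicle, too few to give a level.

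Ratios within a library do not depend on how libraries are scaled, so each called row was also set against Cacna2d1, a reference picked after its values were seen. Rows called lower are low against an uncalled row by that choice, so the ratios are a description. For every count of Cacna2d1 there were 0, 0.25 and 0.05 counts of Cacna1a in cisplatin libraries 1, 2 and 3, and 1.53, 0.722 and 0.963 in the vehicle libraries. The corresponding values of Cacna1c probe 65180 were 0.0625, 0.30 and 0.05 against 1.59, 0.583 and 0.815. Every cisplatin ratio of these rows was below every vehicle ratio. Cacna1c probe 69753 gave 0, 0.10 and 0 against 1.09, 0.806 and 0.444, and Cacnb2 probe 76028 gave 0.0625, 0.05 and 0 against 1.35, 0.389 and 0.481, again without overlap. For Cacnb3 the ratios were 0.50, 0.40 and 0.20 against 0.853, 0.472 and 0.222, and they overlapped.

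By pattern over the 6 libraries, the rows most like Cacna2d1, the tested channel row with the highest mean CPM over all libraries, were those of Rsph3b (Pearson r of log2 CPM 0.962), Pomp (0.960) and Cbx7 (0.945) among 7810 tested rows of other genes with a mean of at least 10 CPM. None of the 3 was called. With vehicle alone the Cacna1a row had the same mean (18.7 CPM each), though equal CPM at different probes need not mean equal message. Probes of the same gene can differ: the Cacnb2 rows averaged 12.1, 2.82 and 0.845 CPM with vehicle. The 6 libraries behind each r, which share 3 mice, allow many such likenesses, so the values are a description.

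**Figure D2:**
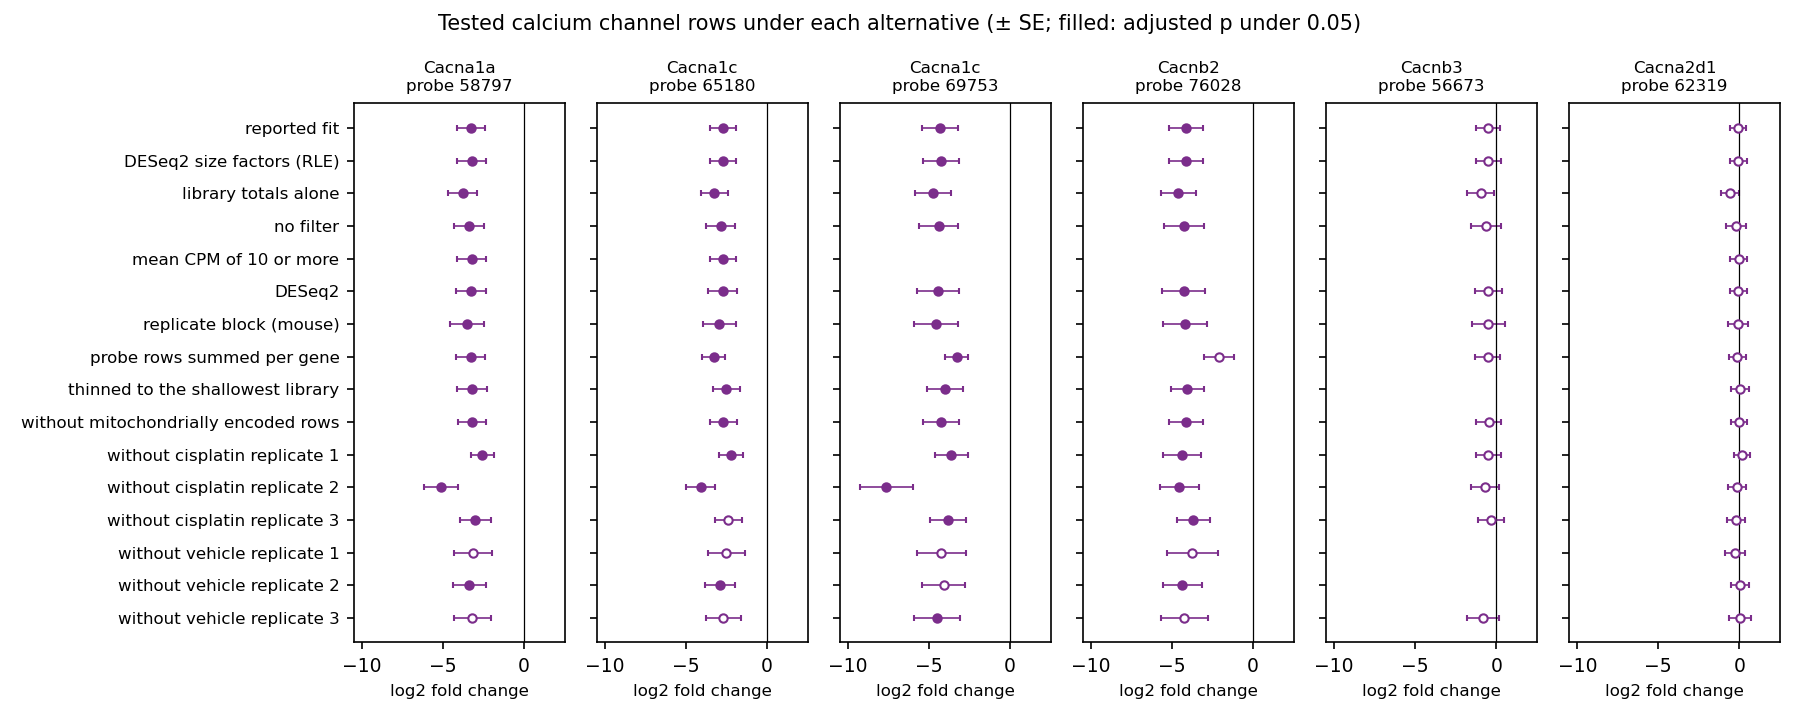
Log2 fold change (cisplatin minus vehicle, ± SE) of each tested channel row in the reported fit and under each alternative, filled where the adjusted p was under 0.05. The Cacna1a, Cacna1c and Cacnb2 rows stay below 0 in all settings shown, with 0 of 4 called without vehicle library 1, and Cacna2d1 lies on both sides of 0.

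The channel genes that were not on the list were mostly too low to test. Of 18 such genes with 26 rows, 8 rows had 0 counts in all libraries and 0 passed the filter. The N-type pore gene Cacna1b was the most counted: probe 71184 had 1, 1 and 5 counts with cisplatin and 17, 15 and 14 with vehicle, and probe 77974 had 6, 1 and 0 against 18, 5 and 19. At the first of these probes the arms did not overlap in CPM (2.33 ± 2.51 and 7.05 ± 1.98, SD, n = 3), while summed over its rows Cacna1b changed by -1.40 ± 0.72 and was not called (edgeR, adjusted p = 0.166). The R-type pore gene Cacna1e had 3 counts in all, from vehicle library 2.

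Among 30 genes whose products bind or act on the channels, Rimbp2 and Erc2, scaffolds of the release site, were lower at every tested row. Of 16 tested rows 5 were called lower and 0 higher, against 13.9% and 11.1% of all rows, and their median log2 fold change was -0.999. Of these rows 3 passed the filter through the vehicle libraries alone, and 2 of the 3, Erc2 probe 69348 and Camk2d, are among the called, beside 57.6% of all rows of that kind, so their calls are not support for a change of the list. All called partners but Snap25 span 100 kb or more. Of all tested rows in genes that long, 55.6% were called lower, which is the nearer share to set beside them. DESeq2 and edgeR at an unadjusted p under 0.05 also gave 0 higher. The Rimbp2 product ties calcium channels to the release machinery, and its row was at 1630 ± 601 CPM with vehicle and 266 ± 97.5 CPM with cisplatin (SD, n = 3), a log2 fold change of -2.61 ± 0.37 (edgeR, adjusted p = 2.8e-04). Erc2, an active zone protein, was lower at both rows: probe 66386 changed by -1.97 ± 0.42 (edgeR, adjusted p = 0.00431), and probe 69348 had 2 cisplatin and 73 vehicle counts, a ratio of 17.4 (95% exact binomial interval 4.64 to 146). Both cisplatin counts lay in library 2, without which its fitted value was -7.26, against -3.27 without cisplatin library 1 and -3.94 with all libraries. Camk2d, a calcium and calmodulin-dependent kinase, changed by -2.71 ± 0.87 (edgeR, adjusted p = 0.0346), or by -2.0 without cisplatin library 1 and -3.50 without library 2. Snap25, a SNARE protein that binds the channels, changed by -2.12 ± 0.70 (edgeR, adjusted p = 0.0389). With the mouse as a block 3 partner rows were called, without Snap25 (adjusted p = 0.0645) and Erc2 probe 69348 (adjusted p = 0.0509). Rimbp2 and Erc2 probe 66386 were called in each of the 15 alternatives, whereas Camk2d and Erc2 probe 69348 were not called without cisplatin library 3 or any single vehicle library, and Snap25 not without cisplatin library 2 or 3 or any single vehicle library. Thinning ended the Camk2d and Snap25 calls, and no filter that of Snap25. Partner calls numbered 2 without vehicle library 1 or 3, and 3 without vehicle library 2 or cisplatin library 3.

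Other partners were not called or not counted enough. Calm2 and Calm3, which encode the calcium sensor calmodulin that binds the pore, had log2 fold changes of 0.32 ± 0.97 and 0.16 ± 0.27, neither called. Rims2, a scaffold that binds the pore, did not pass the filter, with 1, 1 and 2 counts with cisplatin and 48, 10 and 31 with vehicle, and its arms did not overlap. Of the small G proteins that inhibit the channels, Rem2 had 0, 8 and 10 counts with cisplatin and 2, 0 and 1 with vehicle at probe 71478, but 0, 0 and 5 against 1, 7 and 3 at probe 75870. Gem had 2 counts in all and the 2 rows of Rrad had at most 3 counts in any library.

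**Figure D3:**
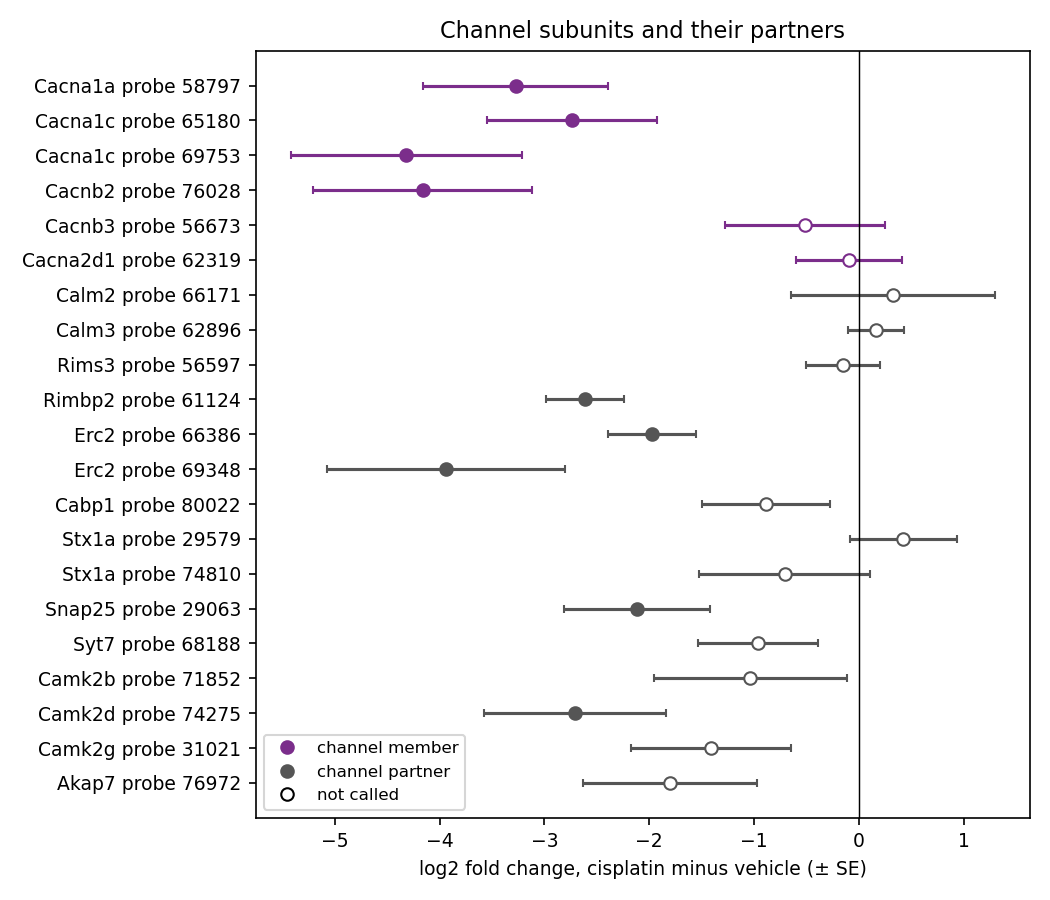
Log2 fold change (cisplatin minus vehicle, ± SE) of the 6 tested channel rows (purple) and 15 tested rows of channel partners (grey), with open circles for rows not called. Called rows lie between -1.97 and -4.32, and the Cacna2d1, Calm2 and Calm3 rows lie between -0.09 and 0.32.

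Most of the channel genes are long. By GENCODE M21 the genomic spans were 252 kb for Cacna1a, 609 kb for Cacna1c, 385 kb for Cacnb2, 440 kb for Cacna2d1 and 13.7 kb for Cacnb3, and 6 of the 8 genes span 100 kb or more. Of 1256 tested rows in genes of 100 kb or more, 55.6% were called lower and 0.796% higher. Of 8007 rows in genes under 100 kb, 7.37% were called lower and 12.6% higher. The median log2 fold change was -1.88 in the first class and 0.08 in the second. The called channel rows all lie in the long class. So does Cacna2d1, which is longer than the called Cacna1a and Cacnb2 and whose value of -0.09 was reached or passed by 108 of the 1256 rows (8.60%). Of the called partners, Rimbp2 spans 196 kb, Erc2 856 kb and Camk2d 250 kb, while Snap25 spans 69.0 kb. Akap7, a partner of 139 kb, was tested and not called. The part of gene span in the lower channel and partner messages was not tested.

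**Figure D4:**
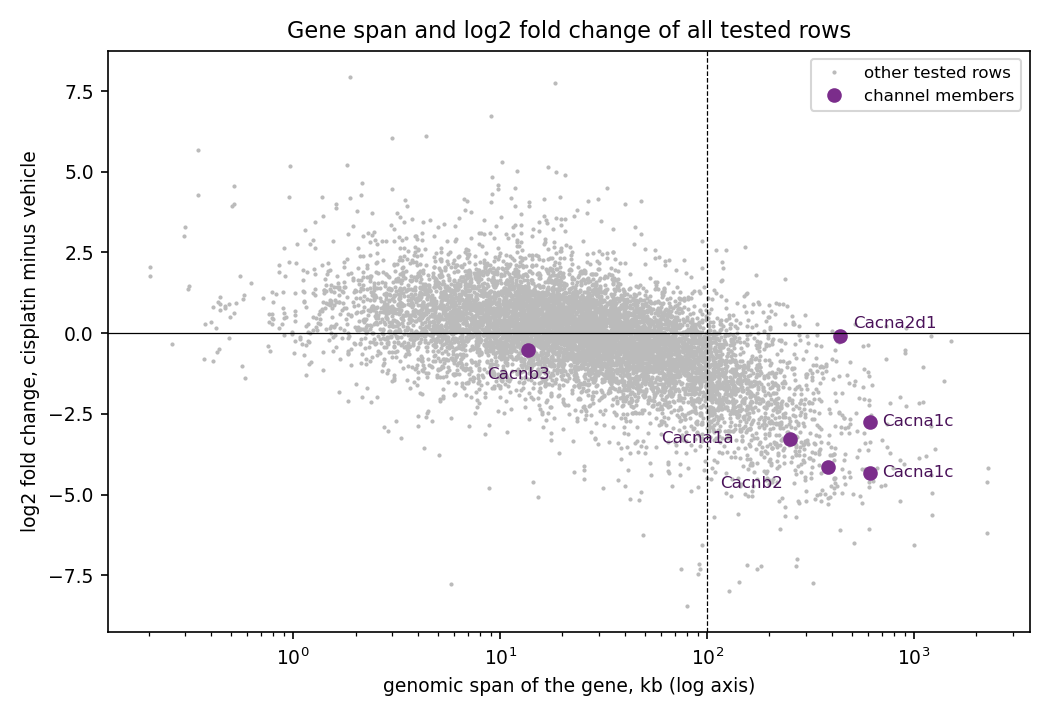
Log2 fold change of every tested row with a span (grey) against the genomic span of its gene on a log axis, with the 6 tested channel rows in purple and a dashed line at 100 kb. Cacna1a, Cacna1c and Cacnb2 lie among the lower values of long genes, and Cacna2d1 lies near 0 at a similar span.

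Start regions of Cacna1c, with both rows called lower, and of Cacnb2, with 1 of 3 rows called lower, are shown with that of Cacna2d1. Cacna2d1 was not called, and the sequences can be compared. RefSeq entries of GRCm38.p6, 250 bases before to 50 after an annotated start, were found for 6 of the 8 genes and 11 starts, with none for Cacna1a and Cacna1h. Which start these islets use, and which one a probe reports, is not known from the counts. Capitals mark the GC box GGGCGG and the cyclic AMP response element core TGACG, each searched on both strands. Adjacent GC boxes in a repeat can share bases.
Cacna1c chr6:119108446-119108745 minus strand: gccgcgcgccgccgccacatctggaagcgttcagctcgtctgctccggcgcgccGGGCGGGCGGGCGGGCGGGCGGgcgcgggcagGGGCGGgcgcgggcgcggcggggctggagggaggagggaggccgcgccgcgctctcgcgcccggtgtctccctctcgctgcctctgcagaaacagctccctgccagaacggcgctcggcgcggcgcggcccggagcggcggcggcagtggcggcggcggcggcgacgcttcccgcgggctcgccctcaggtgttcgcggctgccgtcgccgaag
Cacnb2 chr2:14604056-14604355 plus strand: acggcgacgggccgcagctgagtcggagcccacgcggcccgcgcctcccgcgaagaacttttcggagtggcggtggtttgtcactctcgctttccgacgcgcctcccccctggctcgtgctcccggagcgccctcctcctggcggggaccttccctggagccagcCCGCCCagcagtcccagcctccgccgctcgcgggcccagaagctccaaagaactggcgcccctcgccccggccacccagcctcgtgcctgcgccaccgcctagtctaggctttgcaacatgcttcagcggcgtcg
Cacnb2 chr2:14823842-14824141 plus strand: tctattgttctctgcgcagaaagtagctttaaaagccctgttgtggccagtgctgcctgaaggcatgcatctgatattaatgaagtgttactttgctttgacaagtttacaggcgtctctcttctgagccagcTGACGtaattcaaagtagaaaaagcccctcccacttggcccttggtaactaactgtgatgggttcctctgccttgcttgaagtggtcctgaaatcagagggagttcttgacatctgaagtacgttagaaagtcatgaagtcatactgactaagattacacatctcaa
Cacna2d1 chr5:15934441-15934740 plus strand: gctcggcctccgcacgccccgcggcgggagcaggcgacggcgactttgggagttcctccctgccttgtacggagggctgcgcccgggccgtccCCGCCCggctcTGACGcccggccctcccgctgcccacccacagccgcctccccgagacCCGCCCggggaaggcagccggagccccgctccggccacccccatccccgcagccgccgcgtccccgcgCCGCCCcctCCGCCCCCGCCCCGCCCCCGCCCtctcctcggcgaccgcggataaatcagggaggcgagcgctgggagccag
The Cacna1c start shown, the most GC-rich of 3 listed, held 6 GC boxes and had a GC content of 81.3%. Its other starts each had no GC box and 51.3% GC, and 1 of them held TGACG. The starts of Cacnb2 differed, with 1 GC box and 71.7% GC at the first, and at the second no GC box, 1 TGACG and 44% GC. The single Cacna2d1 start held 7 GC boxes and 1 TGACG at 80% GC. Among all 32851 start regions of this length 35.7% held a GC box and 20.8% TGACG, and the median GC content was 52.7%.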

How the data were processed

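The authors deposited raw counts, whole numbers for each probe in each library. STAR 2.7.10b, fastp 0.23.2 and DESeq2 1.44.0 appear in the submitters' processing notes, without a role. The sources used here do not state the alignment target, counting rule or probe sequences, so reads shared between similar genes cannot be judged.

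Rows that passed filterByExpr (minimum count 10) were scaled with TMM factors and tested with edgeR 4.0.16 (limma 3.58.1, R 4.3.3; quasi-likelihood F-test, robust, treatment as the only term, two-sided). P-values were adjusted over all 9381 rows (Benjamini-Hochberg), and a row was called under 0.05. SE is the log2 fold change over the root of F. P-values rest on the spread between 3 libraries per arm, which edgeR moderates with that of other rows. The tested channel rows had 13.9 to 14.0 degrees of freedom, more than 6 libraries alone give. Animal and assay variation are not separated in this spread. Count ratios have exact binomial (Clopper-Pearson) 95% intervals. Log2 CPM used a prior count of 2. The code was tested on simulated data.

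The labels give both arms of a mouse 1 animal identifier, which pairs the libraries. Deviations from the group means correlated at -0.116, 0.0336 and 0.219 in the 3 pairs, and all library pairs differed by more than sampling noise. The reported fit has no mouse term, and the mouse block was an alternative. Alternatives also covered scaling, filters, DESeq2 1.42.0, summed probes and each library left out. Thinning and the omission of mitochondrially encoded rows were added after seeing the data.

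Members, gene lists and markers were chosen with earlier results of these data known. All member rows are given. Called rows of the other lists are named, as are Cacna1b, Cacna1e, Gem, Rrad, Rem2, Rims2 and Rimbp2 whatever their values. Gene locations and spans are from GENCODE M21 (GRCm38), matched by symbol for 98.7% of tested rows. Some genes of the lists are not reported here, while counts over lists include them.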

Additional observations from a re-analysis of the deposited data

How the results depend on the processing

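The direction of the 4 called channel rows held under every alternative in which they were tested, and their calls held with DESeq2 size factors, library totals alone, no filter, DESeq2, thinning and omission of mitochondrially encoded rows. The mouse block (replicate block) left 4 channel rows lower and moved partner calls to 3, with 2198 of all rows called against 2342. It changed no other call of the channel and partner rows, and calls of marker rows were not compared. Channel rows called lower numbered 2 with a filter at a mean of 10 CPM, where 3 rows were tested, 2 of 5 genes with probes summed, and 0 to 4 without single libraries (0 without vehicle library 1 and 1 without vehicle library 3). Partner rows called lower numbered 3 after thinning and 2 to 6 without single libraries. Without single libraries 1085 to 2540 of all rows were called, 581 to 1296 lower and 504 to 1244 higher, the fewest without vehicle library 1. With library totals alone 2016 were lower and 466 higher, against 1304 and 1038. The log2 fold change of Cacna2d1 was 0.042 after thinning and -0.24 to 0.18 without single libraries, above 0 without cisplatin library 1 and vehicle libraries 2 or 3 and uncalled each time. The Cacnb3 row failed the filter after thinning, at a mean of 10 CPM and without vehicle library 1 or 2. The causes were not tested. Depth limits all of this: 8 of the 14 channel rows had too few counts to be tested.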
